A study of Homo sapiens with 2 samples.

Results

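The genes described here are 49 genes of DNA replication and of entry into S phase, read at their start sites in a leukaemia cell line by precision run-on sequencing (PRO-seq). They were chosen by name, each has 1 window in a table of 36814 windows, and all 49 names were found. The series has 2 libraries of K562, a cell line established from human chronic myelogenous leukaemia that carries erythroid traits. Cells of the first were kept in 0.1% DMSO, a drug solvent, for 1 h, and those of the second were untreated. By description both came from the same line grown in serum-containing RPMI medium, and not from normal dividing blood cells. Whether all reads of the DMSO library are of this line was not tested, and its neural marker reads are given below. In PRO-seq, engaged polymerases extend their transcripts with biotinylated nucleotides for 5 min at 30 °C, and the labelled RNA is captured and sequenced. Each treatment has 1 library, so no difference has a replicate check or a p-value.

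Replication is licensed when the origin recognition complex, CDC6 and CDT1 load the MCM2 to MCM7 ring onto DNA. At the start of S phase the kinase CDC7 with its subunit DBF4, and cyclin E with its kinase, turn the loaded ring into an active helicase that also holds GINS. Polymerases, the clamp PCNA with its loader RFC, and the single-strand binding protein RPA then copy the DNA. Many of these genes are known targets of the E2F transcription factors, which the retinoblastoma protein holds back until the cell commits to division. The study's stated purpose was a profile of unperturbed K562 cells.

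The DMSO library held 4154920 reads and the untreated library 2136291, of which 2249790 (54.1%) and 525322 (24.6%) lay outside ribosomal RNA and mitochondrial windows. Of 9 markers of the erythroid line, 7 reached 1 read per 1000000 reads of the library (CPM) in both libraries, among them TFRC, KLF1, HBG1, TAL1 and GATA1. The globin gene HBE1, at 0 reads, has no base that its window does not share, and HBG2, with 2 DMSO reads and 0 untreated reads, has 47. Neither of these windows holds the RefSeq start of its gene. Of 5 epithelial, fibroblast and liver markers 1 reached 1 CPM in both libraries, KRT8. The 5 neural markers held 691 reads in the DMSO library, all 5 with at least 1, and 1 read in the untreated library, where 4 were at 0. GFAP alone had 514 DMSO reads and 0 untreated reads. Their summed level was 166 CPM in the DMSO library and 0.468 CPM in the untreated one. Where these neural marker reads came from, and their part in the ratios below, was not tested. In such bulk libraries fewer cells of a type and less RNA per cell cannot be told apart.

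Each window covers 6000 bases, 3000 to either side of an annotated gene start on hg38, and all 1154 windows without a base of their own held 0 reads. From this it was inferred that reads in bases that 2 windows share were counted for neither gene, since the counting options are not given in the sources used here. It bears on which replication genes can be read at all. Of the 49 member windows 28 were free of shared bases, and 20 were left with under 1 kb (40.8%, against 27.1% of the windows of RefSeq protein-coding genes and 23.7% of all windows). CHAF1A, a subunit of the chromatin assembly factor, stood between them with 2092 bases of its own. In all, 42.9% of the members shared bases, close to the 41.1% of protein-coding and the 38.8% of all windows.

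The 20 member windows with under 1 kb of their own were those of genes that start next to a gene of the opposite strand. Such a start lay within 1 kb of 20 of the 49 members (40.8%), against 23.5% of protein-coding windows and 20% of all windows. Within 200 bases it lay beside 11 members (22.4%, against 10.9% of protein-coding windows). By the annotated starts, 13 of the 20 pairs diverge and 7 overlap. Of the 6 origin recognition genes, 5 were so placed. ORC1 starts 179 bases from PRPF38A, ORC2 417 from AC005037.1, ORC3 80 from RARS2, ORC4 593 from MBD5 and ORC6 125 from VPS35, and ORC5 alone had a full window. Of the helicase ring, MCM2 starts 143 bases from TPRA1, MCM4 2 bases from PRKDC and MCM7 391 from AP4M1. PCNA, the sliding clamp, starts 253 bases from CDS2, and POLE, the leading strand polymerase, 211 from PXMP2. Both genes that finish Okazaki fragments are paired as well, the flap nuclease FEN1 with TMEM258 at 109 bases and the ligase LIG1 with ZSWIM9 at 77. The others were GINS3 with PRSS54 at 33 bases, DBF4 with SLC25A40 at 144, POLA2 with AP000944.6 at 172, UHRF1 with ARRDC5 at 184, and PRIM1 with HSD17B6 at 213. RFC4 lay 634 bases from AC112907.1, CCNE2 911 from NDUFAF6 and RPA1 932 from SMYD4.

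**Figure D1:**
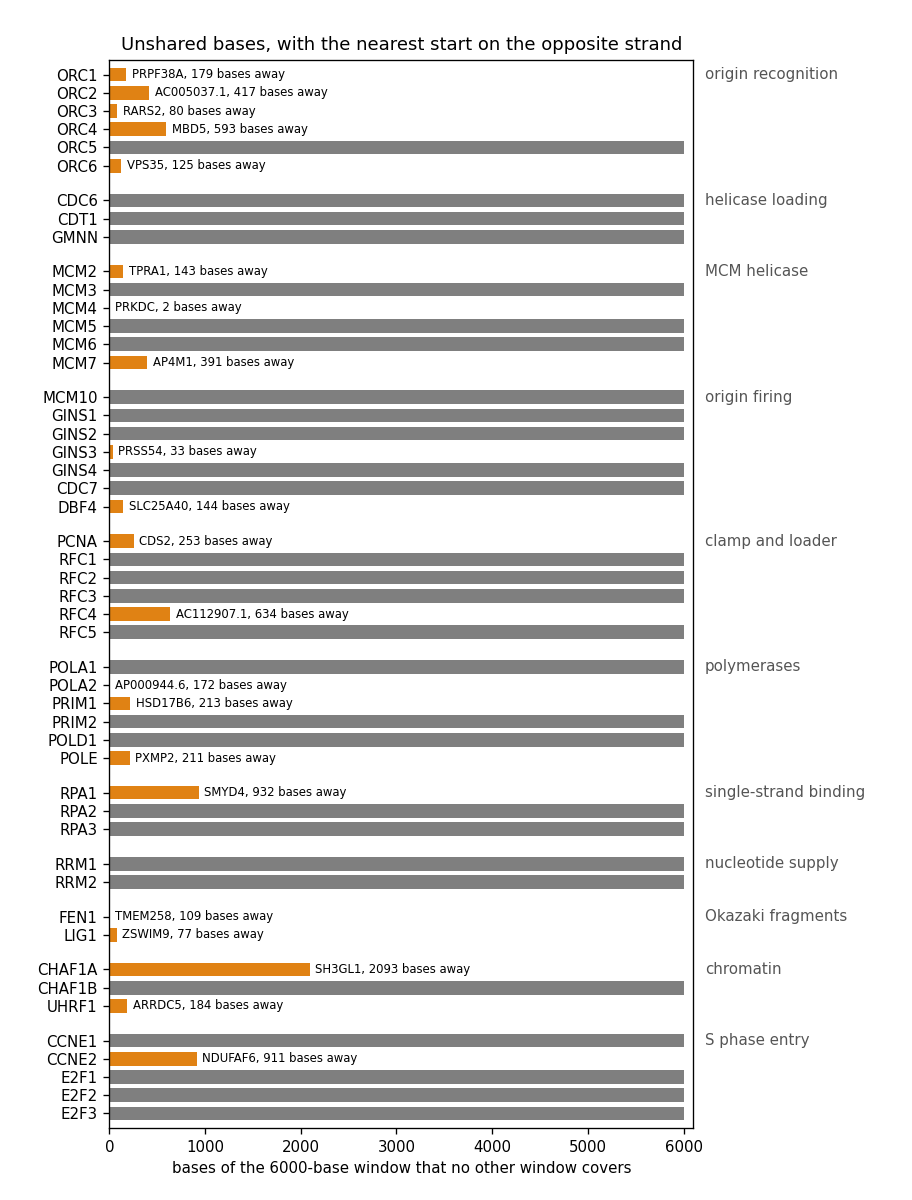
Bars give, for each of the 49 members by role, the bases of its 6000-base window that no other window covers, grey for full windows and orange for shared ones. Labels give the nearest start on the opposite strand and its distance. The 28 grey bars reach 6000 bases, and 20 of the 21 orange ones stay under 1000.

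If shared bases were not counted, the reads left in these windows say little of how active the genes are. The 20 windows together held 63 DMSO and 25 untreated reads, and the most in any of them was 18, at POLE with 14 DMSO and 4 untreated reads and at RFC4 with 15 and 3. Neither library had a read at ORC6, MCM4, GINS3, PCNA, POLA2, FEN1 or UHRF1. FEN1 and POLA2, a subunit of polymerase alpha, have no base of their own, MCM4 has 1 and PCNA 252. At FEN1 and POLA2 a window of the same strand overlaps too, that of FADS2 starting 69 bases away and that of AP000944.5 8 bases away. ORC1 had 7 DMSO reads, LIG1 5, ORC3 4, and ORC4, PRIM1 and CCNE2 2 each, with DBF4 at 1, and all 7 had 0 untreated reads. ORC2 had 5 DMSO and 7 untreated reads, MCM7 4 and 7, RPA1 1 and 3, and MCM2 1 and 1. A count of 0 allows up to 3 reads, which make 0.722 CPM in the DMSO and 1.40 CPM in the untreated library. The windows of GINS3 and RFC5 do not hold the RefSeq start of their gene, and those of ORC1 and PRIM2 hold a RefSeq promoter start but not the outer edge of the RefSeq gene.

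The divergent pairs place 2 gene starts on very little DNA. The stretches below are from the RefSeq promoters of GRCh38.p14 and show 2 of the pairs, the letters in capitals running from the annotated start of the neighbour to that of the member. They were chosen to show how much sequence the 2 genes have between them. In the table's annotation, 81 capital bases at chr6:87589967-87590087 (plus strand) join RARS2, the mitochondrial arginyl-tRNA synthetase, to ORC3, and 144 at chr3:127598247-127598430 (plus strand) join TPRA1 to MCM2.
ORC3: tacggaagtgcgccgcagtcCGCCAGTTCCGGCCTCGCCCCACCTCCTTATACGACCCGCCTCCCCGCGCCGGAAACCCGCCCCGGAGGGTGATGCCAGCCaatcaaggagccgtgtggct
MCM2: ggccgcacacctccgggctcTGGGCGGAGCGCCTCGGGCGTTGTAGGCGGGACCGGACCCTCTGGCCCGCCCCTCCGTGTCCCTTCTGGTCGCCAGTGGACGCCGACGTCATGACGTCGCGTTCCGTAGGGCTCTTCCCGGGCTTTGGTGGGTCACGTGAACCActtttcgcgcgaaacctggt

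Member promoters shared short words that the choice by name did not use. RefSeq promoters, 250 bases before to 50 after a start, were in the table for 43 of the 49 symbols, and for 40 members a promoter start lay in the window. MCM4, MCM5, GINS4, RPA2, RPA3 and CCNE2 had no entry, and the RefSeq promoter starts of GINS3, RFC5 and UHRF1 lay outside their windows. The E2F words searched on both strands were TTCCCGC and its relatives, namely TTGGCGC as well as TTCGCGC and also TTGCCGC. At least 1 of them stood in 29 of these 40 promoters (72.5%), against 17.7% of 13462 promoters chosen in the same way for protein-coding genes and 13.0% of all 35116 promoters. Among promoters of 60 to 75% GC the shares were 76.0% of 25 member promoters and 22.9% of 6727. At least 2 matches stood in 15 member promoters (37.5%, against 2.71% of protein-coding ones). The words TTGGCGC and TTCGCGC end in letters that read alike on both strands, so 1 stretch can hold 2 overlapping matches, as in MCM6.

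CCAAT, the word bound by NF-Y, stood in 22 member promoters (55.0%, against 36.2% of protein-coding ones), and GGGCGG, an Sp1 word that can overlap an E2F word, in 28 (70.0%, against 60.9%). An E2F word and CCAAT stood together in 19 (47.5%, against 6.82%). TTTGAA, the CHR word known from genes of mitosis, stood in 3 (7.50%, against 11.7%), those of DBF4, RRM1 and E2F3. In the mitosis and G2 list the picture was the other way round, with the CHR word in 63.2% and an E2F word in 26.3% of 38 promoters. The 58-name list of further replication and S phase genes held 40 promoters, of which 35.0% had an E2F word. CCAAT stood in 65.8% of the mitosis and G2 promoters and 50% of those of the 58-name list, and GGGCGG in 71.1% and 80%. Of these lists the members were thus highest for neither word. Among promoters of 60 to 75% GC, GGGCGG stood in 80% of member and 77.7% of protein-coding promoters, nearly alike. CCAAT stood in 52% and 34.7% of them. A match is a string of letters and not a site shown to be bound.

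The stretches below, 100 bases before to 50 after the start, show the E2F words in capitals at 5 members past the read floor used below, and CCNE1, the member of highest ratio, where none of the 4 words occurs in the 300-base promoter. They lie at chr20:33686336-33686485 (E2F1, minus strand), chr16:88803689-88803838 (CDT1, plus), chr17:40287779-40287928 (CDC6, plus), chr6:52284693-52284842 (MCM3, minus), chr2:135876394-135876543 (MCM6, minus) and chr19:29811891-29812040 (CCNE1, plus) of GRCh38.p14.
E2F1: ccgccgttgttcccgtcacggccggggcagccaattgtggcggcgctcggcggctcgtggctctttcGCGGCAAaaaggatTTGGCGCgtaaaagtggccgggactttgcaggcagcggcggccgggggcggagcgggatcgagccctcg
CDT1: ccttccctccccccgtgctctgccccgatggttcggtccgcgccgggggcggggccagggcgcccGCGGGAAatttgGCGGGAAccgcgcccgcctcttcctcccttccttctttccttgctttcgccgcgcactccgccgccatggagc
CDC6: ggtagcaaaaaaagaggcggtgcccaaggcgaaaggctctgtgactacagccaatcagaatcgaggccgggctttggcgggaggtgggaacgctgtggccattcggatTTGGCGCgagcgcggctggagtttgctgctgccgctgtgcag
MCM3: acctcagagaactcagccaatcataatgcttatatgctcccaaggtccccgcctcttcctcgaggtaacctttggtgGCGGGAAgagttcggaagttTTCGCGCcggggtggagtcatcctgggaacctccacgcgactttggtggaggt
MCM6: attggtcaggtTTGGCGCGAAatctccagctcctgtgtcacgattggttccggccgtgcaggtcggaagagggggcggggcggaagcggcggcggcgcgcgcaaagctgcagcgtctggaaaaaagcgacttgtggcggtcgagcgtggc
CCNE1: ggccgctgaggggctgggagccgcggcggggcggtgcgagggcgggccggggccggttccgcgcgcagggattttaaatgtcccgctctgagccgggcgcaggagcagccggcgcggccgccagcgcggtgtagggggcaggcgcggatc

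Most matches lay near the start. Of 50 E2F matches in the 40 promoters, 38 (76.0%) began between 100 bases before and 50 bases after it. In E2F1 the matches began 33 and 19 bases before the start, in CDT1 35 and 23 before it, and in CDC6 9 bases after it. Of 43 CCAAT matches 22 (51.2%) began in that stretch. Members without an E2F word were ORC2, ORC4, ORC5, ORC6, GMNN, MCM10, DBF4, PRIM2, POLD1, FEN1 and CCNE1. No match says only that these letters are not in these windows.

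**Figure D2:**
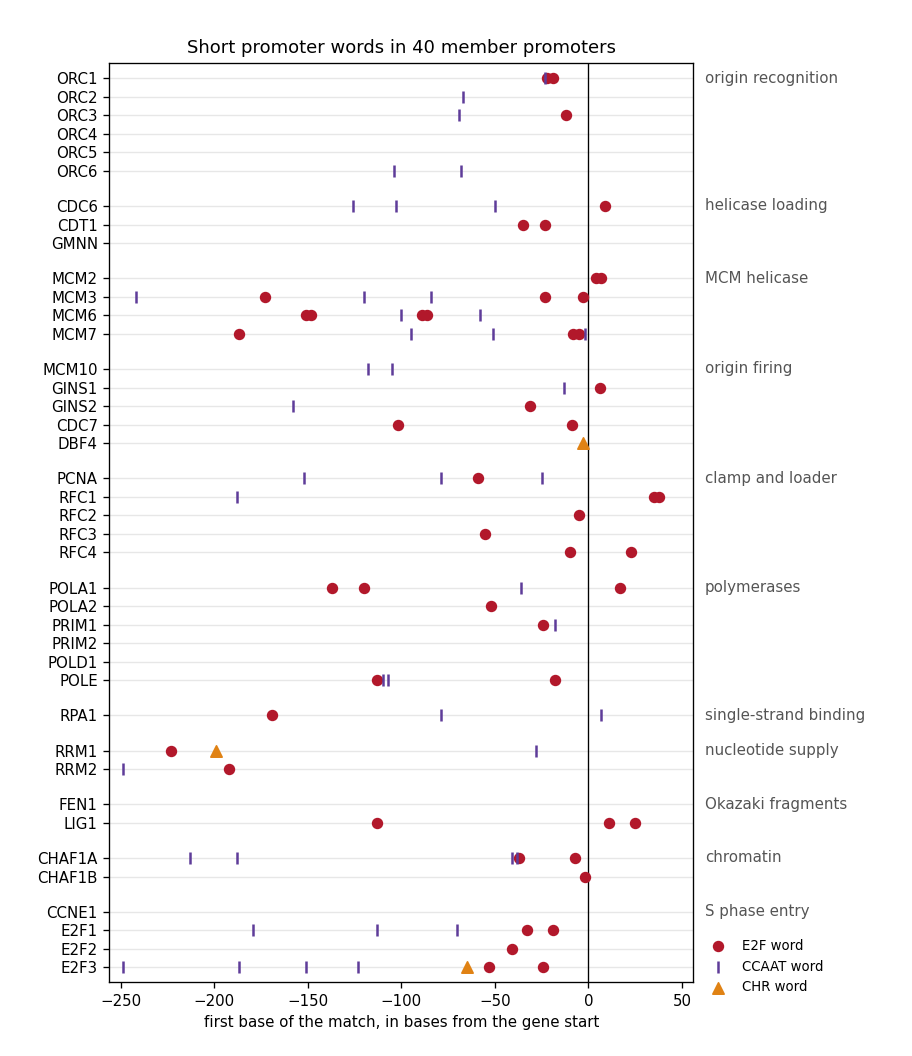
Red circles, purple ticks and orange triangles mark the first base of each E2F, CCAAT and CHR word in the 40 member promoters, by role, in bases from the gene start at 0. Of the E2F words, 38 of 50 lie between 100 bases before and 50 after the start.

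**Figure D3:**
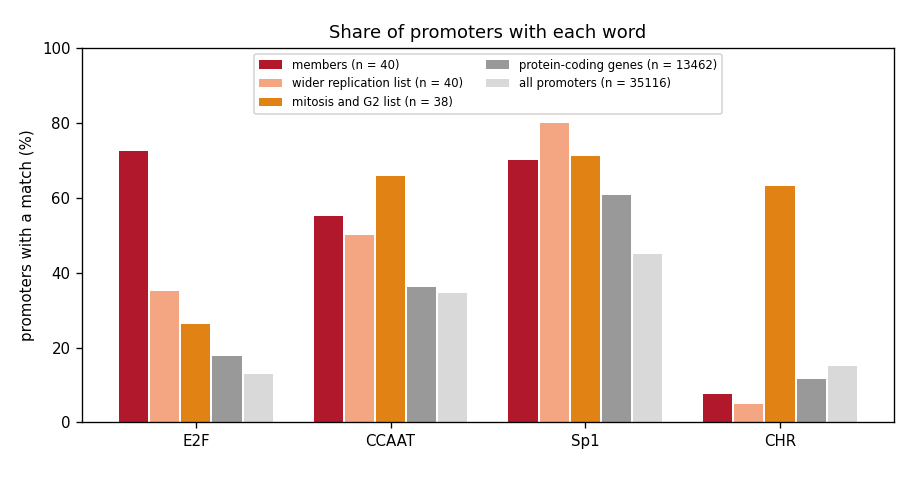
Bars give the percentage of promoters with at least 1 match of each word in the members, the wider replication list, the mitosis and G2 list, protein-coding genes and all promoters. The E2F bar is 72.5% for members and 17.7% for protein-coding genes, and the CHR bar is 63.2% for the mitosis and G2 list and 7.50% for members.

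Where a member had a full window, it was nearly always read. Of the 28 such members 27 (96.4%) reached 1 CPM in both libraries, against 52.7% of 11035 protein-coding windows that share no base. The exception was RFC5. Over all windows the counts were 31 of 49 members (63.3%) and 34.7% of the table. The median of the 28 was 61.7 CPM in the DMSO and 18.7 CPM in the untreated library, against 4.81 and 1.87 CPM for those protein-coding windows. Ranked by mean CPM, 4 members were in the top 1% of windows and 18 in the top 10%. E2F3, POLD1, RRM2 and CDT1 took 47.7% of all member reads in the DMSO library and 48.1% in the untreated one. Since ribosomal RNA took unequal shares of the libraries, CPM values rank genes within a library and do not compare the libraries. Levels of members compared below are from windows of 6000 unshared bases, except that of CHAF1A. Unshared means that no other start window covers a base, and the body of a gene starting farther off can still lie there. Reads of such a gene were not separated from those of the member.

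**Figure D4:**
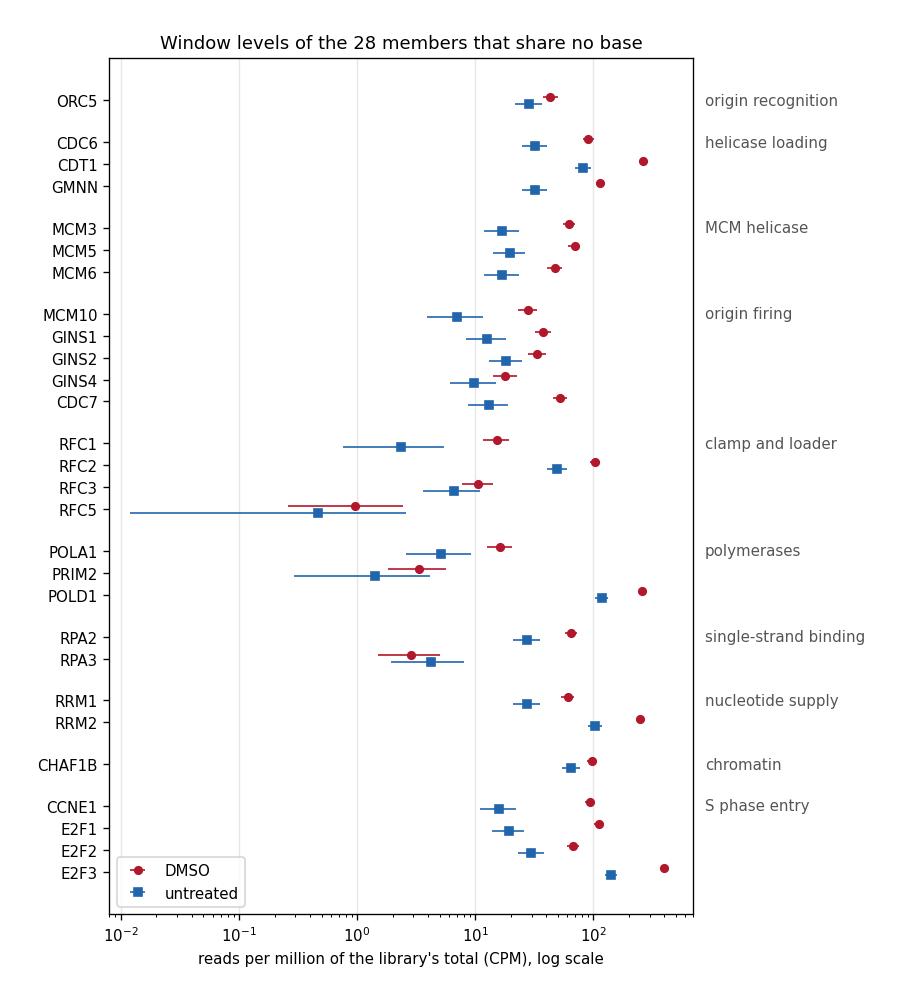
Points give the level of the 28 members that share no base in the DMSO (red circles) and untreated (blue squares) libraries, in CPM on a log axis, by role, with exact 95% Poisson intervals for counting error. E2F3 is highest at 399 and 140 CPM and RFC5 lowest at 0.963 and 0.468 CPM.

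Among regulators of S phase entry, the start of E2F3 (chromosome 6, 20398879 to 20404878) was the most read of all members, with 1657 DMSO and 300 untreated reads (399 and 140 CPM), and ranked 70 of 36814 windows. E2F1 had 466 and 41 reads and E2F2 279 and 64, all 3 being activators of the E2F family. E2F3 stood 5.94-fold above E2F2 in the DMSO library (95% counting interval 5.23 to 6.77) and 4.69-fold in the untreated one (3.57 to 6.24). CCNE1, the cyclin E1 gene (chromosome 19, 29808991 to 29814990), had 392 and 34 reads. E2F1 and CCNE1 thus lay below E2F3 in both libraries and traded places with E2F2, being above it with DMSO and below it untreated.

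CDT1, CDC6 and GMNN were each read more than the 3 ring genes with full windows. CDT1 (chromosome 16, 88800789 to 88806788) had 1097 DMSO and 175 untreated reads, CDC6 378 and 68, and GMNN, whose product geminin binds and inhibits CDT1, 478 and 68. CDT1 exceeded GMNN 2.29-fold in the DMSO library (2.06 to 2.56) and 2.57-fold in the untreated one (1.93 to 3.46). Of the ring, MCM5 had 288 and 42 reads, MCM3 260 and 36, and MCM6 196 and 36. These 3 subunits, which occur once each per ring, stayed within 1.47-fold of each other in the DMSO library (MCM5 over MCM6, 1.22 to 1.77) and 1.17-fold in the untreated one (0.730 to 1.87). Among the firing factors, CDC7 had 216 and 28 reads, GINS1 157 and 27, GINS2 139 and 39, MCM10 116 and 15, and GINS4 75 and 21. ORC5, the only origin recognition gene with a full window, had 180 and 61 reads.

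Subunits of the clamp loader, RPA and ribonucleotide reductase were further apart than those of the ring. Those of GINS with full windows were nearer each other than these. GINS1 stood 2.09-fold above GINS4 in the DMSO library (1.58 to 2.79) and 1.29-fold in the untreated one (0.700 to 2.39). RFC2, a clamp loader subunit, had 429 DMSO and 106 untreated reads, against 63 and 5 at RFC1, 44 and 14 at RFC3 and 4 and 1 at RFC5, whose window misses the RefSeq start. RPA2 exceeded RPA3 22.6-fold in the DMSO library (12.7 to 44.3) and 6.56-fold in the untreated one (3.23 to 15.0), with 271 and 59 reads at RPA2 and 12 and 9 at RPA3. POLD1, the catalytic subunit of polymerase delta (chromosome 19, 50381204 to 50387203), had 1067 and 252 reads and POLA1, that of polymerase alpha, 67 and 11. The primase subunit gene PRIM2 had 14 and 3. RRM2 (chromosome 2, 10117698 to 10123697), the small subunit of ribonucleotide reductase, had 1041 and 222 reads and the large subunit RRM1 253 and 59, a gap of 4.11-fold (3.58 to 4.74) and 3.76-fold (2.81 to 5.10). CHAF1B, a chromatin assembly subunit, had 408 and 139 reads, and CHAF1A 84 and 14 in its shorter unshared stretch.

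The order of the members was similar in both libraries. Over the 28 full windows Spearman's rho between DMSO and untreated CPM was 0.912 and Pearson's r of log2(CPM + 1) was 0.937, and over the 21 members past the floor described next rho was 0.801. These are correlations across genes, which are not independent replicates and share the libraries.

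Setting DMSO against untreated cells compares 2 libraries, 1 of each treatment. Ratios were scaled with TMM and are given relative to the median of the 6591 windows (17.9% of the table) with a mean of at least 5 CPM and 100 reads over both libraries. At that median, 4.72 DMSO reads stand against 1 untreated read. Of the members 21 passed this floor (42.9%), all with full windows, the lowest being MCM10 with 131 reads and the highest below it CHAF1A with 98. The floor counts both libraries together, mostly DMSO reads, so windows higher with DMSO pass it more easily. MCM10, the lowest past it, had 116 DMSO and 15 untreated reads.

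Of the 21 members past the floor, 19 lay within 2-fold of the median window. The other 2 were CCNE1 and E2F1, regulators of S phase entry like E2F2 and E2F3, which were among the 19. The median log2 DMSO/untreated ratio of the 21 was 0.23, against 0 for all windows past the floor by construction and 0.13 for the 4695 protein-coding ones. Above the median window lay 12 members (57.1%), as did 59.1% of protein-coding windows. CCNE1 stood at 1.28 (95% counting interval 0.78 to 1.84) and E2F1 at 1.26 (0.81 to 1.77), the only 2 members at least 2-fold higher with DMSO (9.52%, against 7.04% of all windows and 8.41% of protein-coding ones). Neither interval lay wholly past 2-fold. No member past the floor was at least 2-fold lower, against 7.97% of all windows and 3.96% of protein-coding ones. Summed over all 49 members, 10194 DMSO reads stood against 1974 untreated reads, a log2 ratio of 0.13 (0.06 to 0.20), and relative to the median of protein-coding windows it was 0.00085. Of the erythroid markers of the line, all 6 past the floor lay below the median window. HBG1 stood at -1.15 (-1.37 to -0.93), TFRC at -0.79 (-0.95 to -0.63), TAL1 at -0.54 (-0.84 to -0.23) and KLF1 at -0.45 (-0.66 to -0.24). The intervals of GATA1, at -0.29, and EPOR, at -0.25, held 0. Their part in the members' ratios was not tested.

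**Figure D5:**
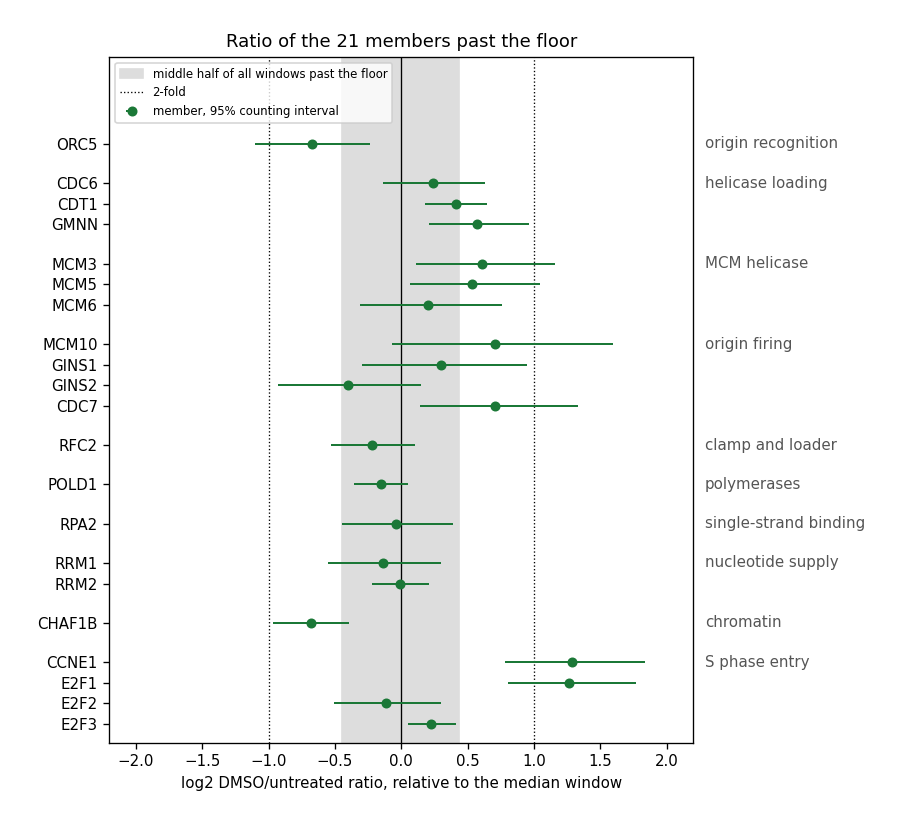
Points give the log2 DMSO/untreated ratio of the 21 members past the floor, relative to the median window at 0, with exact 95% counting intervals. Grey spans the quartiles of all 6591 windows (-0.44 to 0.44) and dotted lines mark 2-fold. CCNE1 and E2F1 lie past the upper line, and ORC5 and CHAF1B are lowest.

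The 6 genes past the floor among CDC6, CDT1, GMNN and the ring were above the median window, as were 59.1% of protein-coding windows past the floor. CDT1 stood at 0.41 (0.18 to 0.65), GMNN at 0.57 (0.21 to 0.96), CDC6 at 0.24 (-0.14 to 0.63), MCM3 at 0.61 (0.11 to 1.16), MCM5 at 0.54 (0.07 to 1.04) and MCM6 at 0.20 (-0.31 to 0.76). With every window that has a read setting the median, CDC6 stood at -0.16 and MCM6 at -0.19. Summed, CDC6, CDT1 and GMNN had a log2 ratio of 0.41 (0.24 to 0.59) and the 6 MCM windows 0.38 (0.10 to 0.67). Of the firing factors, CDC7 stood at 0.70 (0.14 to 1.33), MCM10 at 0.70 (-0.07 to 1.60), GINS1 at 0.30 (-0.29 to 0.95) and GINS2 at -0.40 (-0.93 to 0.15). RFC2 stood at -0.22 (-0.53 to 0.10), POLD1 at -0.16 (-0.36 to 0.05), RPA2 at -0.04 (-0.45 to 0.39), RRM1 at -0.14 (-0.55 to 0.30) and RRM2 at -0.01 (-0.22 to 0.21). The lowest were CHAF1B at -0.68 (-0.97 to -0.40) and ORC5 at -0.68 (-1.10 to -0.23). In the E2F family E2F3 stood at 0.23 (0.05 to 0.41) and E2F2 at -0.11 (-0.51 to 0.30), so the interval of E2F1 lay wholly above both. The difference between roles was not tested.

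Counting intervals lay wholly above the median window for 8 members (38.1%, against 22.5% of all windows and 27.6% of protein-coding ones), namely CDT1, GMNN, MCM3, MCM5, CDC7, CCNE1, E2F1 and E2F3. They lay wholly below it for 2 (9.52%, against 24.5% and 16.4%), ORC5 and CHAF1B. Both counts depend on the centring. The lower bounds of MCM3 (0.11), MCM5 (0.07) and E2F3 (0.05) lay below 0.13, the median of protein-coding windows past the floor. Those of the other members named as above lay over it. The upper bounds of RFC2 (0.10) and POLD1 (0.05) also lay below 0.13. Windows with 400 reads or more, whose intervals are narrower, were 10 of the 21 members and 1755 of the 6591 windows. These intervals cover counting error only and hold no spread between cultures. Of the 8 members below the floor with at least 1 kb of their own, RFC1 stood at 1.38 (0.12 to 3.09) with 63 and 5 reads, and RPA3 at -1.76 (-3.19 to -0.40) with 12 and 9. The intervals of GINS4, RFC3, RFC5, POLA1, PRIM2 and CHAF1A held 0.

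Ratios of members with and without an E2F word covered nearly the same range. The 14 members past the floor with such a word had a median log2 ratio of 0.22 (range -0.68 to 1.26) and the 5 without one 0.57 (range -0.68 to 1.28). Across the 21 members Spearman's rho of the ratio was -0.32 with RefSeq gene length and -0.15 with mean CPM, given as descriptions over genes of the same 2 libraries.

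In the wider list of replication and S phase genes, 56 of 58 names had a window and 24 passed the floor. Their median log2 ratio was 0.33, with 19 above and 5 below the median window. The 4 at least 2-fold higher with DMSO (16.7%, against 7.04% of all windows and 8.41% of protein-coding ones) were TFDP1, CDC25A, E2F7 and DSCC1, the last at 1.06 (0.33 to 1.92). Each of these 4 had 7 to 17 untreated reads and passed the floor through its DMSO reads, the side on which it is high. The list's share thus leans on the DMSO library, as do the shares beside it. TFDP1, whose product is the partner through which E2F proteins bind DNA, had 432 DMSO and 7 untreated reads, a log2 ratio of 3.67 (2.65 to 5.03). CDC25A, a phosphatase that activates cyclin-dependent kinases, stood at 1.65 (0.93 to 2.49) with 239 and 16 reads, and E2F7, an E2F repressor, at 1.11 (0.40 to 1.93) with 174 and 17. The lowest were DNA2 at -0.32, TOP1 at -0.30 and RNASEH2A at -0.23, and all 3 intervals held 0. DONSON, with 720 and 162 reads, RNASEH2C, with 517 and 89, and the histone chaperone gene NASP, with 505 and 63, had the highest CPM of the list's windows, which differ in their unshared bases. An opposite start lay within 1 kb of 26 of the 56 (46.4%).

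The median ratio of genes of mitosis and G2 lay below that of the members. Of 52 such windows 26 passed the floor, with a median log2 ratio of -0.01, 12 above and 13 below the median window. The median of protein-coding windows past the floor, 0.13, lay between this and the 0.23 of the members. Which list stands nearer to the centre thus depends on the centring. None of the 26 was at least 2-fold higher, against 7.04% of all windows and 8.41% of protein-coding ones. At least 2-fold lower were 2, against 7.97% and 3.96%. Those 2 were BIRC5, with 165 DMSO and 82 untreated reads at -1.23, and TPX2, with 123 and 61 reads at -1.22, both known from the mitotic spindle and named after their values were seen. The difference of the lists' medians was not tested.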

How the data were processed

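PRO-seq of 1 DMSO and 1 untreated K562 library was used. The authors deposited read counts over windows of 6000 bases around gene starts. Per the submitters' processing notes, Bowtie2 2.3.5, featureCounts 2.0.1 and hg38 were used. The TPM values the authors deposited equalled CPM in all 36814 windows (tolerance 1e-06). The strand setting of the counting is not given in the sources used here, so reads of a gene and of an antisense partner in its window cannot be told apart.

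CPM were computed from the deposited counts over library totals. Ratios used TMM factors from edgeR 4.0.16 (R 4.3.3; 3.81 DMSO reads per untreated read), a prior count of 0.5 split by effective size, and the floor of 5 CPM and 100 reads. Intervals at 95% are exact (Poisson, or Clopper-Pearson for ratios) and cover counting error only, since each treatment has 1 library. They treat every read as a separate molecule. Reads carry no molecular identifiers to check this, so the intervals may be too narrow. The ratio and its interval were run on simulated Poisson counts with the true scale given. Such a run checks neither the TMM scaling nor any spread beyond counting error. DESeq2 1.42.0 size factors were an alternative. Statistics used scipy 1.17.1.

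RefSeq GRCh38.p14 gave starts, lengths and promoters. Of several promoters in a window, the one nearest the annotated start was used. Members, lists and words were chosen with earlier results of these data known. Named in full were, by rule, the most read member of each role, the 6 highest and 6 lowest ratios, and members at 0 or with under 1 kb unshared. From the wider list the rule took 3 each by level, high ratio and low ratio. AND1 and CDT2 in that list have no window. The lymphoid marker list is not reported here.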

Additional observations from a re-analysis of the deposited data

How the results depend on the processing

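No paired analysis was possible because DMSO and untreated cells have a single library each, and no replicate could be left out. With library totals, DESeq2 size factors, the upper quartile, totals outside ribosomal RNA and mitochondrial windows, or a smaller or larger prior count, all with centring kept, the counts of 12 members above the median window, 2 at least 2-fold higher and 0 lower stayed, and the median was 0.23. Without centring, the median was 0.54, the summed ratio 0.44, and 4 members were at least 2-fold higher. At 1 CPM and 20 reads 27 members passed, 17 were above the median window, 3 were at least 2-fold higher and 1 lower, and the summed ratio was 0.24. At 20 CPM and 400 reads 10 passed, 6 were above the median window, the median was 0.11 and the summed ratio 0.011. With any read, the median was -0.18, the summed ratio -0.26, and 6 members were at least 2-fold higher and 7 lower. CCNE1 (0.89) and E2F1 (0.87) were then below 2-fold and not among the 6, and none of the 6 was past the main floor. CHAF1B (-1.08) and ORC5 (-1.07) were among the 7. Windows holding a RefSeq start gave a median of 0.10 and a summed ratio of 0.0070. At 1.5-fold, 5 members were higher and 2 lower. Centring on protein-coding windows, chosen after seeing the data, gave a median of 0.098, a summed ratio of 0.00085 and kept 2 members at least 2-fold higher. Floors and centring change which windows set the median. With the DMSO library thinned, 14 members passed the floor, with a median of 0.16. CCNE1 and E2F1 had the highest 2 ratios among members past the main floor under each of these settings that gives a ratio. Untreated depth limits single ratios, with 3 untreated reads making 1.40 CPM.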
